A study of Mus musculus with 7 samples.

Results

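The passenger strands of kidney microRNAs were taken as the mouse microRNA names on the array that end in an asterisk. miR-21*, miR-199b* and miR-214* were left out, as were all names of the repeat-rich families miR-297, miR-466, miR-467, miR-574, miR-669 and miR-1187. This gave 108 starred strands among 611 mouse microRNA names, and 103 unstarred names of the same stem served as their reference. The rule reads names alone.

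MicroRNAs were measured on 1-colour (Cy3) Agilent mouse arrays in whole kidney of young male mice, labelled 4 weeks old, with 3.5 to 4 weeks given in the protocol. The 4 wild-type mice were mgb+/+ and the 3 megabladder mice were mgb-/-, and each mouse gave 1 array. In the megabladder mutant, smooth muscle fails to develop in the bladder wall, urine cannot drain freely and the kidneys swell with it. Megabladder mice 2, 3 and 4 were used, megabladder mouse 1 was not analysed here, and no strain is named for either group in the labels. Whole kidney RNA mixes all cell types, so fewer cells of a type and less RNA per cell cannot be told apart.

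A microRNA hairpin is cut into a short duplex, and 1 strand of it, the guide, is kept by an Argonaute protein while the other, the passenger, is usually degraded. The asterisk is an older naming rule for the strand that was cloned less often, and newer names give the 5p or 3p arm instead. In some tissues both arms are kept, and starred strands with their own targets are known. Bases 2 to 8 of a mature strand, the seed, carry most of its target pairing, so the starred and unstarred strands of 1 hairpin have different targets.

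RefSeq held a usable mature sequence for 23 of the 25 starred strands detected on any array, with 19 distinct seeds, of which 4 were shared by several strands. The let-7 strands are shown first, because the starred strands of the set that were called in the single-strand fit below lie among them. Seed bases are in capitals, sequences run 5′ to 3′, and all are from RefSeq on GRCm38.p6. The array files hold no probe sequences, so names were matched to RefSeq arms through the renaming of starred microRNAs.
let-7b*: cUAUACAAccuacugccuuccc
let-7f*: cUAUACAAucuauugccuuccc
let-7d*: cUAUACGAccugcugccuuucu
let-7b: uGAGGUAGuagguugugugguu
let-7f: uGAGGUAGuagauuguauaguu
let-7d: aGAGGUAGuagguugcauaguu
The starred strands let-7b* and let-7f* share 1 seed and differ by C9U and C13U, with positions counted from the 5′ end and the let-7b* base first. let-7d* differs from let-7b* by A7G, A12G, C20U and C22U, and the first of these lies in the seed. The let-7b* strand lies at chr15:85707379-85707400 on the plus strand, within the long noncoding RNA gene Lncppara. The let-7d* strand (chr13:48536024-48536045, minus strand) and the let-7f* strand (chr13:48537833-48537854, minus strand) start 1809 bases apart, and neither overlaps another RefSeq gene. The arm matched for let-7f* is that of let-7f-1.

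The strands below are shown because they share seeds within the miR-30 and miR-200 families, form the other called pair (miR-193* and miR-193), or had groups that did not overlap (miR-877*).
miR-30a*: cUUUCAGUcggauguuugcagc
miR-30e*: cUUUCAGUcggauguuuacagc
miR-30c-1*: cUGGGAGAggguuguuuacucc
miR-30c-2*: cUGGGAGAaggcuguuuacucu
miR-200a*: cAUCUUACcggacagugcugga
miR-200b*: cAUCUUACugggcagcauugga
miR-193*: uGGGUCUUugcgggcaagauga
miR-193: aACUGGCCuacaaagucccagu
miR-877*: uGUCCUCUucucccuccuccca
miR-30a* and miR-30e* share a seed and differ only by G18A. miR-30c-1* and miR-30c-2* share another seed, as do miR-200a* and miR-200b*. miR-877* comes from an intron of Abcf1 that is itself the hairpin (a mirtron), and its 22 bases are almost all pyrimidines. Of the 22 starred strands that were tested, 14 are 3p arms and 8 are 5p arms, and of the 20 with a RefSeq entry in use 12 overlap another RefSeq gene, among them miR-140* in Wwp2, miR-191* in Dalrd3, miR-455* in Col27a1, and miR-30c-1* and miR-30e* in Nfyc. The 20 tested strands with a sequence were 21 to 23 bases long, with a GC content of 40.9% to 59.1%.

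Fewer starred strands than unstarred partners were above background. A probe counted as detected where at least 0.5 of its spots were flagged well above background by the scanner software, and a microRNA where any of its probes was. Of the 108 starred strands, 25 (23.1%) were detected on any array and 15 on all 7, while 65 of the 103 unstarred strands (63.1%) were detected on any array and 56 on all. Over all 611 mouse microRNAs, 241 (39.4%) were detected on any array.

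On the wild-type arrays 20, 21, 23 and 20 starred strands were detected, against 20, 16 and 20 on the megabladder arrays. The means were 21.0 ± 1.41 (SD, n = 4) and 18.7 ± 2.31 (SD, n = 3), and the groups share the count of 20. The array of megabladder mouse 3 was the lowest, with 16 starred strands, although it had the most unstarred strands of any array, 62. The unstarred counts were 59 to 61 in wild-type and 56 to 62 in megabladder kidneys. Under the stricter rule that all spots of a probe be well above background, 22 starred strands were detected on any array, and under the software's own gene call 30 were.

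**Figure D1:**
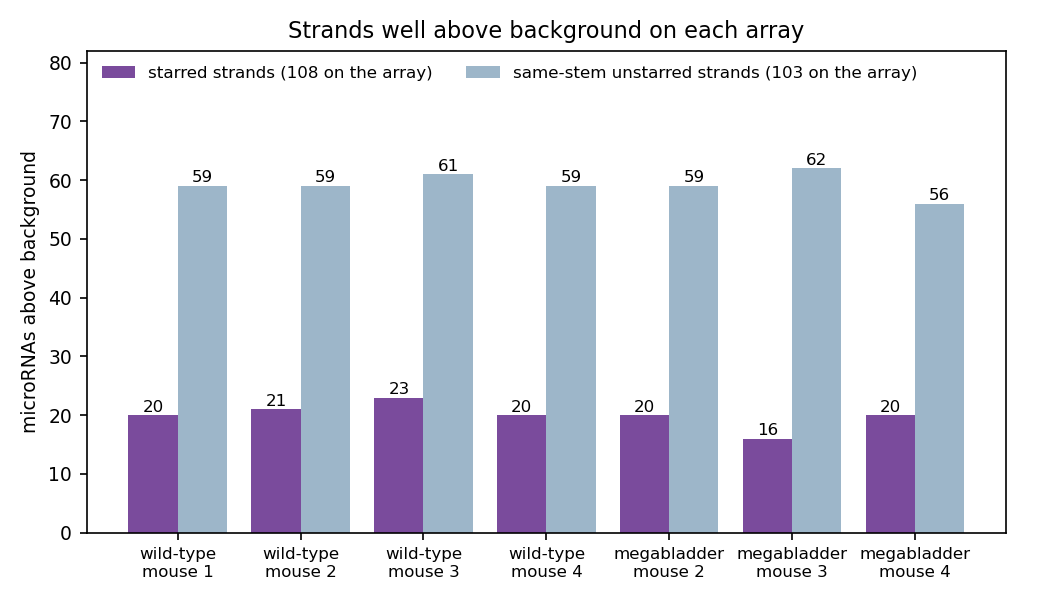
Number of starred strands and of same-stem unstarred strands well above background on each array, 1 pair of bars per mouse. The starred counts lie between 16 and 23 of 108 and the unstarred counts between 56 and 62 of 103, and the genotypes overlap for both.

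Among the 107 hairpins with both names on the array, both strands were detected for 18, the unstarred strand alone for 51, the starred strand alone for 7 and neither for 31. A starred strand was thus detected for 26.1% of hairpins whose unstarred strand was detected and for 18.4% of those whose unstarred strand was not. The 7 strands detected alone were miR-17*, miR-191*, miR-483*, miR-485*, miR-674*, miR-877* and miR-9*. Of these, miR-17*, miR-674* and miR-877* were detected on all 7 arrays. The probes of unstarred miR-17, a strand known to promote cell division, stayed between -0.16 and 9.67 unscaled units. Those of unstarred miR-191 stayed between -4.42 and 0.54 units and those of unstarred miR-877 between 0.47 and 4.24 units.

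Of the 25 detected strands, 22 were detected by 1 probe on at least 3 arrays and were tested. The other 3 were miR-9*, from a hairpin known from neurons, on wild-type arrays 2 and 3, miR-29b* on wild-type array 3, and miR-483*, from an intron of Igf2, on megabladder array 4. The remaining 83 starred strands were not detected on any array by this rule.

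Levels are given as log2 of the background-subtracted signal after arrays were brought to the same 75th percentile of the 292 probes that all 7 arrays detected. Signals under 11.4 units (3.51 on the log2 scale) were set to that floor, and 10 of the 22 tested strands have at least 1 array at the floor. The floor acted on each probe, so a strand with several probes can be floored in part without being counted here. Signals of different probes cannot be set against each other as amounts, so each strand was compared only with itself across arrays. The arrays themselves differed in brightness: the 75th percentile used for scaling spanned 348 to 496 units among wild-type and 224 to 333 among megabladder arrays, 0.61 log2 units lower in the latter. Every array was on 1 slide, and the row of the slide coincides with genotype, so position and genotype cannot be told apart.

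Marker microRNAs matched the labelled tissue: miR-192, miR-194 and miR-204 of the proximal tubule were detected on all 7 arrays, with a summed scaled signal of 1675 to 1766 units on wild-type and 1189 to 2026 on megabladder arrays. The urothelial list (miR-205, miR-31 and miR-203, of which all 3 were detected on some array) summed to 51.2 to 59.6 units on wild-type and 51.8 to 102.5 on megabladder arrays. The median of these 3 levels was 3.51, 3.51, 3.63 and 3.51 across wild-type mice 1 to 4 and 5.57, 4.34 and 4.21 in megabladder mice 2 to 4, without overlap. The leukocyte list (4 of 4 detected) summed to 139 to 185 and 128 to 183 units, the smooth muscle list (3 of 4, miR-133a not detected) to 160 to 203 and 176 to 225 units. The erythroid list (3 of 3) summed to 2193 to 2887 and 2004 to 3824 units and endothelial miR-126-3p to 1576 to 1638 and 1386 to 1682 units. Liver miR-122 was detected on 1 array and the neuronal miR-124 and miR-9 on none. The part of these cell types in the results below was not tested.

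Genotypes were compared with limma over the 213 tested mouse microRNAs, with Benjamini-Hochberg adjustment over all of them, and differences are megabladder minus wild-type. let-7b* and let-7d* were higher in megabladder kidneys and no starred strand was lower, 2 of 22 tested. In the same fit 2.82% of all tested microRNAs were called higher and 0.469% lower. Groups did not overlap for 5 starred strands, all of them higher in megabladder (let-7b*, let-7d*, let-7f*, miR-485* and miR-877*), while 18.8% of all tested microRNAs were higher without overlap and 3.29% lower. By sign alone 16 tested strands were above 0 and 6 below, with a median difference of 0.03 for the starred strands and 0.09 for all tested microRNAs, and 5 starred strands had an unadjusted p under 0.05. Of the starred names that the rule leaves out, 6 were tested. All 6 were above 0, with a median of 0.87, 5 of them without overlap, and 1 was called higher.

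**Figure D2:**
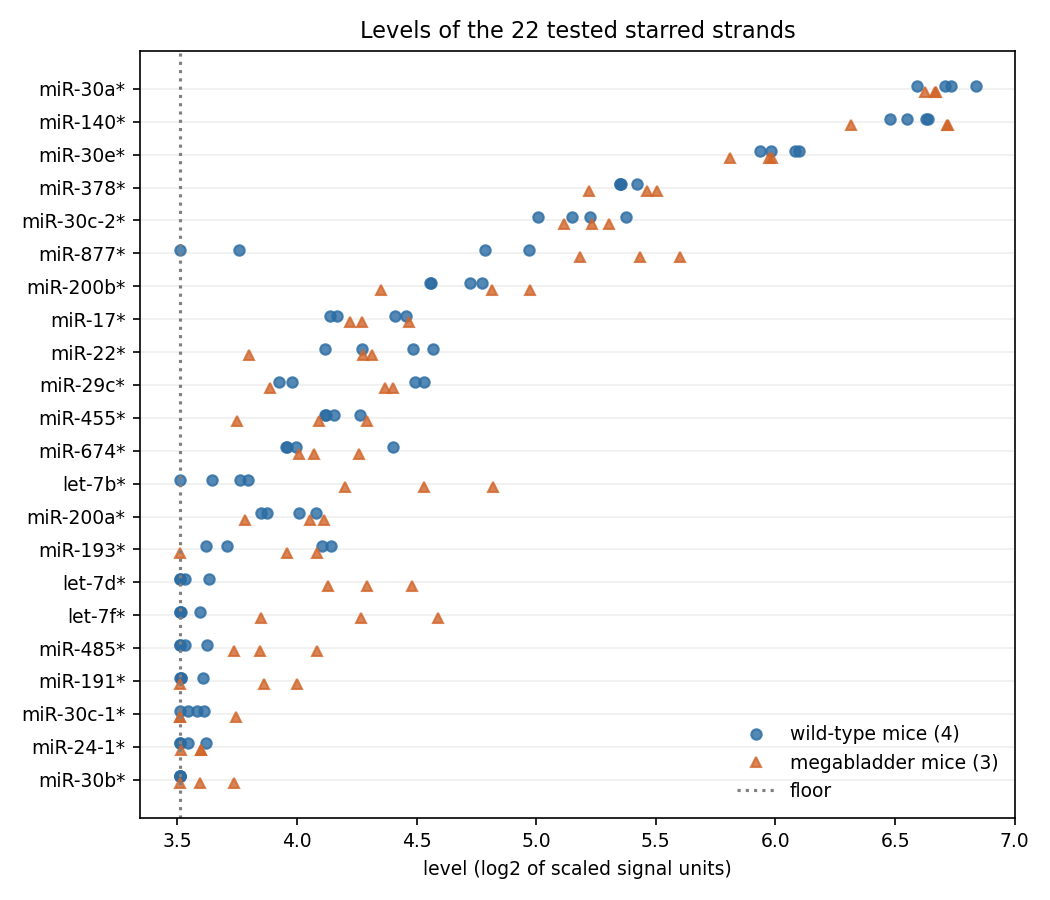
Level of each of the 22 tested starred strands on each array, in log2 scaled signal units, with 1 point per mouse and the floor as a dotted line. let-7b*, let-7d*, let-7f*, miR-485* and miR-877* have all 3 megabladder points above all 4 wild-type points, and rows cannot be compared with each other as amounts because each has its own probes.

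The let-7 family is known for guide strands that restrain growth and are abundant in differentiated tissue, and its starred strands are normally scarce. The array names 7 starred let-7 strands within the set, of which let-7b*, let-7d* and let-7f* were detected. By the same rule let-7a*, let-7c-1*, let-7g* and let-7i* were not detected on any array. The let-7b* level was 3.76, 3.80, 3.51 and 3.65 in wild-type mice 1 to 4 and 4.53, 4.20 and 4.82 in megabladder mice 2 to 4. All 3 megabladder values lay above every wild-type value, and wild-type mouse 3 was at the floor. The difference was 0.84 (95% interval 0.47 to 1.21, limma adjusted p = 0.0315), and all 4 of its probes were higher in megabladder.

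The let-7d* level was 3.53, 3.63, 3.51 and 3.51 in wild-type mice 1 to 4 and 4.29, 4.13 and 4.48 in megabladder mice 2 to 4. The groups were again separate, with wild-type mice 3 and 4 at the floor. The difference was 0.76 (0.51 to 1.01, limma adjusted p = 0.0315), from the 1 of its 4 probes that passed the filter. The value moved with the setting, and in none of the following was it called: 1.05 with a floor of 1 unit (limma adjusted p = 0.0899), 0.19 with all 4 probes and no filter, 0.29 with the 75th percentile over all probes, 0.32 with no scaling and 0.06 in the authors' deposited table.

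The let-7f* level was 3.51, 3.51, 3.51 and 3.60 in wild-type mice 1 to 4 and 4.27, 3.85 and 4.59 in megabladder mice 2 to 4. The groups did not overlap, 2 wild-type arrays were at the floor, and all 4 probes were higher in megabladder. The difference of 0.70 (0.31 to 1.10) did not pass the threshold (limma adjusted p = 0.0551). In all 3 strands megabladder mouse 3 had the lowest of the megabladder levels.

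The unstarred strands did not rise with them. let-7b averaged 11.50 ± 0.19 in the wild-type and 11.24 ± 0.23 in the megabladder mice (SD, n = 4 and 3), a difference of -0.26 (limma adjusted p = 0.394). let-7d ranged from 9.99 to 10.08 and from 9.89 to 10.07, a difference of -0.04 (limma adjusted p = 0.882), and let-7f at 10.87 ± 0.03 and 10.58 ± 0.21, a difference of -0.30 (limma adjusted p = 0.214). For let-7f all 3 megabladder values lay below all 4 wild-type values.

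The comparison of starred with unstarred strands was made within each array, where a common scaling factor cancels unless a value is at the floor. For each hairpin the log2 level of the unstarred strand was subtracted from that of the starred strand, and limma compared these differences between genotypes over 25 pairs of strands, 17 of them starred strands of the set. The size of a difference depends on the probes, and only its change between arrays is read. The starred strand rose against its partner in 4 of the 17 pairs (let-7b*, let-7d*, let-7f* and miR-193*) and fell in 0 (4 of the 17 had an unadjusted p under 0.05), and 20% of all 25 pairs were called higher. Groups did not overlap for 4 of the 17 in the upward direction, against 28% of all pairs, and for 1 (miR-30a*) in the downward direction, against 4% of all pairs.

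The strand difference of let-7b* was -7.56, -7.57, -8.13 and -8.04 in wild-type mice 1 to 4 and -6.74, -6.80 and -6.64 in megabladder mice 2 to 4. The change was 1.10 (0.75 to 1.46, limma adjusted p = 0.00073), or 2.15-fold. For let-7d* the differences were -6.55, -6.45, -6.48 and -6.49 in wild-type and -5.78, -5.76 and -5.55 in megabladder kidneys, a change of 0.80 (0.62 to 0.97, limma adjusted p = 0.00010), or 1.74-fold. In both hairpins the spread within a genotype was smaller than the step between genotypes, although wild-type mice 3 and 4 stood apart from mice 1 and 2 for let-7b*.

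For let-7f* the strand difference was -7.32, -7.34, -7.38 and -7.30 in wild-type and -6.45, -6.48 and -6.09 in megabladder kidneys, a change of 1.00 (0.76 to 1.23, limma adjusted p = 0.00010), or 2.00-fold. How a change divides between the strands depends on the scaling: with it the starred strands carry most of each change, while in unscaled log2 signal let-7b differed by -0.88, let-7d by -0.65 and let-7f by -0.91, each larger than the difference of its starred strand. The other 14 starred pairs changed by -0.13 to 0.42, with a median of 0.11.

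**Figure D3:**
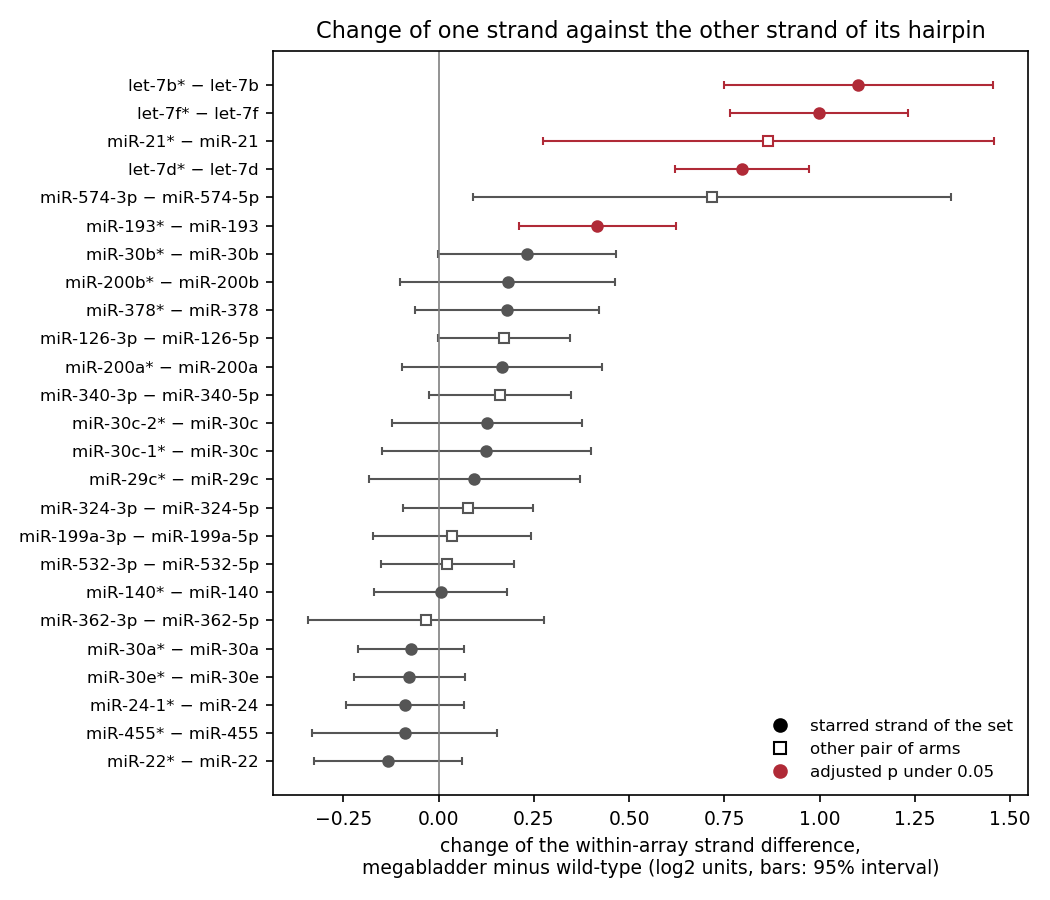
Change between genotypes of the within-array difference of paired strands, with 95% limma intervals, for 17 starred pairs (filled circles) and 8 other pairs of arms (open squares). let-7b*, let-7f* and let-7d* lie at 1.10, 1.00 and 0.80, miR-193* at 0.42, and the other filled circles have intervals that include 0, while the open squares hold miR-21*, a starred strand left out by the rule, at 0.87.

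In unscaled scanner units these let-7 starred signals were dim and changed little, while the unstarred ones were lower on the dimmer megabladder arrays. let-7b* gave 15.0, 17.7, 13.8 and 12.6 units in wild-type mice 1 to 4 and between 17.7 and 18.2 units in all 3 megabladder mice. let-7d* gave 13.1, 15.7, 10.1 and 8.32 units and then 15.2, 16.9 and 14.4 units, and let-7f* 12.8, 13.4, 13.9 and 12.2 units and then 15.0, 13.9 and 15.5 units. The groups overlap for let-7d* and are separate by a narrow margin for let-7b* and let-7f*.

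Over the same arrays the unstarred let-7b signal was 3534 ± 731 units in wild-type and 1899 ± 79.5 units in megabladder kidneys (SD, n = 4 and 3), let-7d 1272 ± 184 and 809 ± 121 units, and let-7f 2266 ± 354 and 1202 ± 130 units. By group mean the let-7 starred signals were higher on the dimmer megabladder arrays. Within the megabladder group let-7d* ranked as array brightness, while let-7b* and let-7f* ranked opposite to it. The dimmest wild-type array, that of mouse 4, had the lowest signal of all 3 starred strands among wild-type arrays. The brightest wild-type array, that of mouse 3, had the highest let-7f* signal among them but not the highest let-7b* or let-7d* signal. The 1298 mouse probes not detected on any array had median signals of -1.07 to -0.69 units on wild-type and -0.82 to -0.44 on megabladder arrays. The let-7 starred signals lay above these medians on every array. Both sets of probes were picked by detection, so this order was largely fixed in advance. Whether an array's brightness acts on dim and bright probes alike was not tested.

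**Figure D4:**
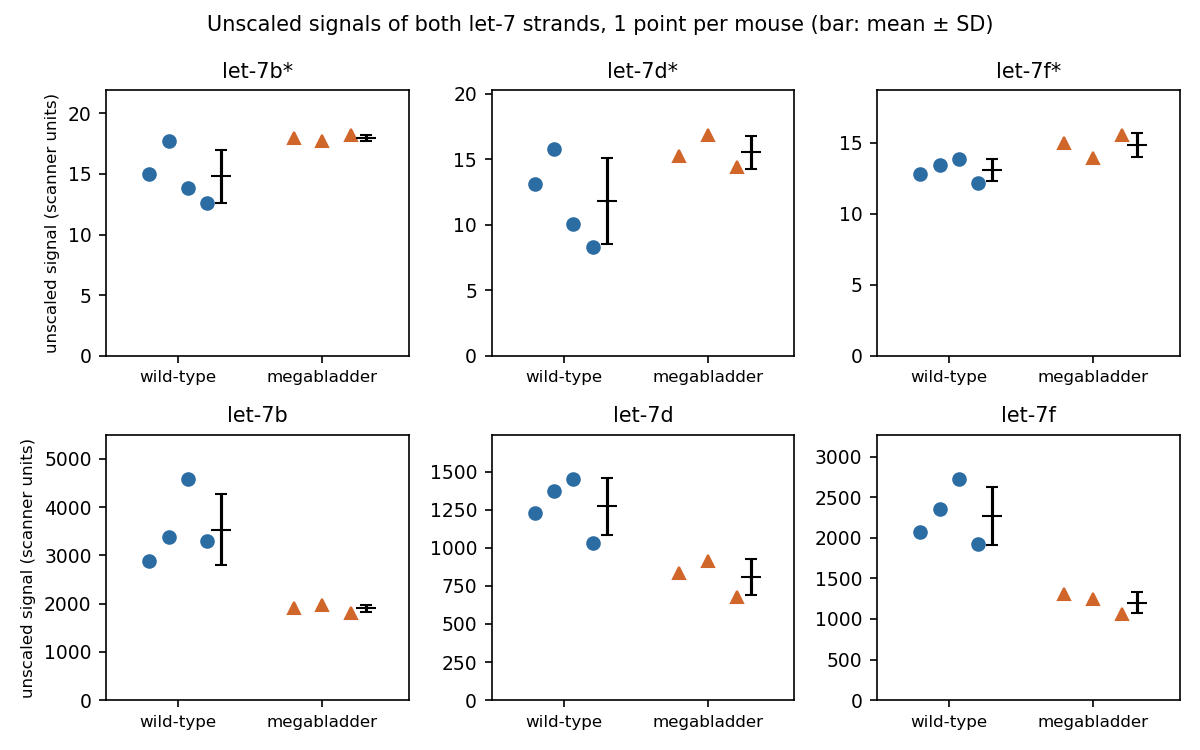
Unscaled background-subtracted signal of the starred (top row) and unstarred (bottom row) strands of let-7b, let-7d and let-7f, in scanner units on axes that start at 0, with 1 point per mouse and bars for mean ± SD. The starred signals lie between 8.32 and 18.2 units in both genotypes, while every unstarred signal is lower in megabladder than in wild-type kidneys.

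Several other dim starred strands were lower in megabladder kidneys before scaling. miR-455*, from an intron of the collagen gene Col27a1, gave 20.9 ± 1.68 units in wild-type and 10.8 ± 2.09 in megabladder kidneys (SD, n = 4 and 3), and miR-22* 21.8 to 32.1 units and then 11.4 to 15.1 units. Within the megabladder group both were lowest in mouse 3, whose array was the brightest of the group. Both were brighter in wild-type kidneys than any let-7 starred signal. Among the tested strands of lowest mean level, miR-30b* and miR-30c-1* were lower in unscaled units without overlap. For miR-191*, miR-24-1* and miR-485* the genotypes overlapped. In the fit without scaling, which keeps a floor, 18 of the 22 tested strands were lower in megabladder and 4 were higher (let-7b*, let-7d*, let-7f* and miR-877*), and limma called 10 lower and 0 higher (12 had an unadjusted p under 0.05), against 31.9% of all tested microRNAs called lower. The let-7 differences were then 0.29 for let-7b* (adjusted p = 0.167), 0.32 for let-7d* (adjusted p = 0.191) and 0.18 for let-7f* (adjusted p = 0.275), all by limma. Across 5 scalings, let-7b* lay 0.47 to 0.79, let-7d* 0.58 to 0.92 and let-7f* 0.33 to 0.68 above the median of all tested microRNAs. So did miR-877*, by 0.87 to 1.10, and miR-485*, by 0.19 to 0.59. All of these scalings but quantile normalization use a common factor per array or none. Such a factor moves a strand and the median alike apart from the floor, so these offsets were largely fixed in advance.

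**Figure D5:**
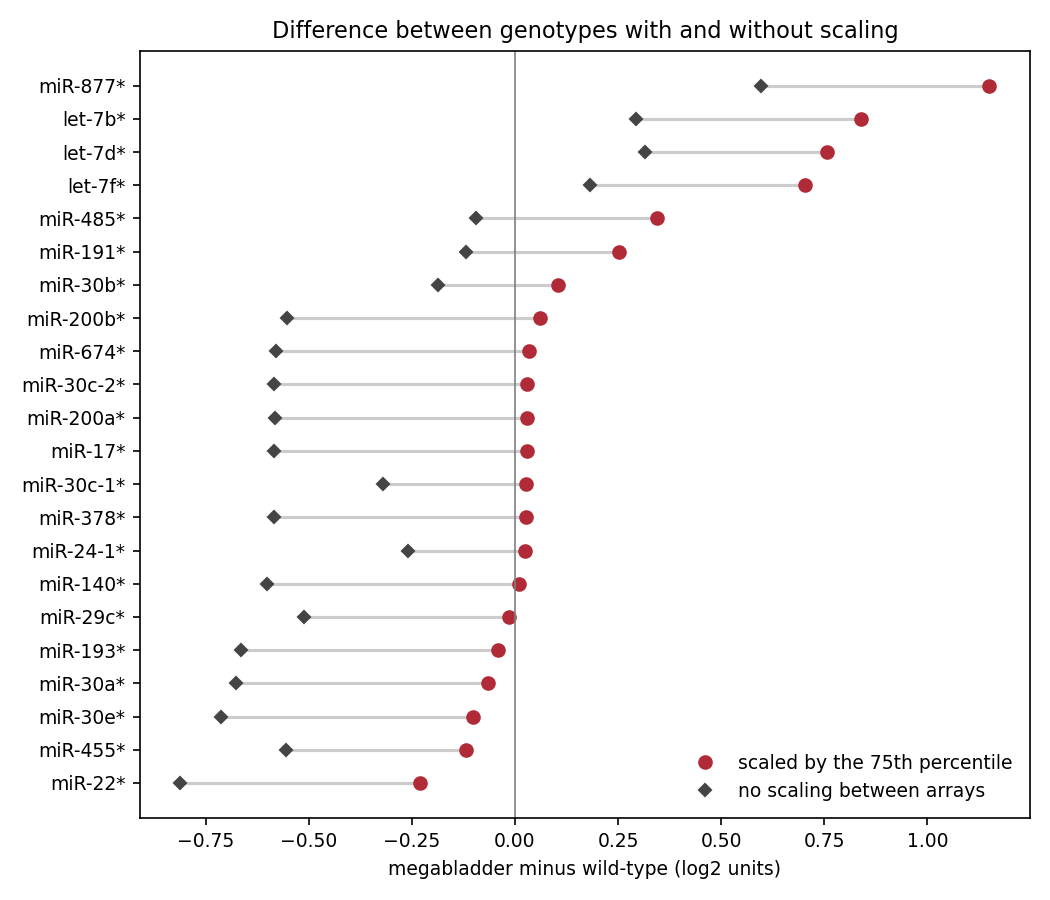
Difference between genotypes (megabladder minus wild-type, log2 units) of the 22 tested starred strands after scaling by the 75th percentile (circles) and with no scaling between arrays (diamonds). Without scaling 18 strands lie below 0, and miR-877*, let-7b*, let-7d* and let-7f* lie above 0 in both.

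The pair calls of let-7b*, let-7d* and let-7f* held when any 1 array was left out, and with wild-type mice 3 and 4 both left out (changes of 0.67 to 0.82). The single-strand calls did not: no starred strand passed without any 1 of the wild-type arrays or without megabladder mouse 2 (4 with an unadjusted p under 0.05 each time), let-7d* alone passed without megabladder mouse 4, and let-7b*, let-7d* and let-7f* passed without megabladder mouse 3. Without any 1 wild-type array or megabladder mouse 2 the difference was 0.76 to 0.85 for let-7b* and 0.67 to 0.77 for let-7d*.

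Other signals and filters ended some pair calls. With normexp background correction no starred pair was called (5 with an unadjusted p under 0.05), the let-7 pairs changed by 0.79 to 1.00 and the other 14 starred pairs were all above 0 as well (0.06 to 0.64). With quantile normalization the let-7 pairs changed by 0.38 to 0.52, and let-7b* alone was called. In the authors' deposited table the let-7 pairs changed by -0.028 to 0.44, let-7b* was called higher, and the pairs of miR-22* and miR-29c* were called lower. With no filter on detection let-7f* alone was called, the let-7b* pair stayed at 1.10 (limma adjusted p = 0.0842 over 177 pairs) and the let-7d* pair was 0.23.

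miR-193* was the other called pair, although its own level was not called. It was at 3.71, 3.62, 4.10 and 4.14 in wild-type mice 1 to 4 and 3.96, 3.51 and 4.08 in megabladder mice 2 to 4, with overlap and a difference of -0.04 (limma adjusted p = 0.932). Unstarred miR-193 was at 7.45, 7.26, 7.74 and 7.82 and then 7.04, 6.94 and 7.35, a difference of -0.46 (-0.86 to -0.05, limma adjusted p = 0.21), with overlap. The strand difference was -3.75, -3.64, -3.64 and -3.68 in wild-type and -3.08, -3.43 and -3.27 in megabladder kidneys, a change of 0.42 (0.21 to 0.62, limma adjusted p = 0.0098), or 1.33-fold. The lowest megabladder level of miR-193* was at the floor, and the call was lost without megabladder mouse 4, with no filter on detection, with the replicate number as a block (0.39, limma adjusted p = 0.065), with a floor of 1 unit (0.31, limma adjusted p = 0.188), with the scanner's total gene signal (0.16, limma adjusted p = 0.813), with quantile normalization (-0.034), in the authors' deposited table (0.17, limma adjusted p = 0.287) and with normexp correction (0.64, limma adjusted p = 0.107).

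miR-877* had a difference that rested on part of the wild-type arrays and did not pass the threshold. Its level was 4.97, 4.78, 3.51 and 3.76 in wild-type mice 1 to 4 and 5.43, 5.18 and 5.60 in megabladder mice 2 to 4. The groups did not overlap, but wild-type mice 3 and 4 were more than a unit below wild-type mice 1 and 2, and the difference was 1.15 (0.26 to 2.04, limma adjusted p = 0.157). The 17 repeat-rich microRNAs of the array had median levels of 5.64, 5.35, 3.51 and 3.51 in wild-type and 5.92, 5.70 and 5.83 in megabladder kidneys, with the same wild-type mice low. In unscaled units miR-877* gave 35.5, 35.0, 13.9 and 13.6 and then 33.6, 35.0 and 31.4, so wild-type mice 1 and 2 lay at the megabladder level. With wild-type mice 3 and 4 left out the difference was 0.51 (0.09 to 0.94, limma adjusted p = 0.257). In the same fit let-7b* differed by 0.70, let-7d* by 0.57 and let-7f* by 0.51, and none of them was called.

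miR-485*, a strand of the imprinted Dlk1-Dio3 region, showed a smaller difference. Its level was 3.53, 3.62, 3.51 and 3.51 in wild-type and 3.85, 3.74 and 4.08 in megabladder kidneys, without overlap. The difference was 0.35 (0.10 to 0.60, limma adjusted p = 0.138), on 1 of 4 probes, with wild-type mice 3 and 4 at the floor. It was 2.00 with a floor of 1 unit, 0.16 with those mice left out and -0.09 with no scaling, and was called in none of these. miR-191* lay at 3.51 to 3.61 in wild-type and 3.51 to 4.00 in megabladder kidneys, with overlap and a difference of 0.25 (limma adjusted p = 0.303).

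The miR-30 family, abundant in kidney epithelium and podocytes, had all 5 of its starred strands tested, and none was called (0 with an unadjusted p under 0.05). miR-30a* was at 6.59, 6.71, 6.84 and 6.73 in wild-type mice 1 to 4 and 6.67, 6.67 and 6.62 in megabladder mice 2 to 4, with overlap. The difference was -0.06 (-0.28 to 0.15, limma adjusted p = 0.771). Its partner miR-30a differed by 0.01, and the strand difference changed by -0.07 (-0.21 to 0.07, limma adjusted p = 0.404), with all megabladder arrays below all wild-type arrays. miR-30e*, of the same seed, was at 5.93 to 6.10 and 5.81 to 5.99, a difference of -0.10 (-0.32 to 0.12).

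miR-30c-2* was at 5.01 to 5.38 in wild-type and 5.12 to 5.30 in megabladder kidneys, a difference of 0.03 (-0.24 to 0.29). miR-30b* and miR-30c-1* were near the floor, with differences of 0.10 and 0.03, and miR-30b* was at the floor in all 4 wild-type mice and in 1 megabladder mouse. miR-30c-1* was well above background in 3 wild-type mice and in no megabladder mouse, and so was miR-24-1*, which differed by 0.02. In unscaled units miR-30c-1* gave 13.6 ± 2.43 in wild-type and 8.02 ± 0.58 in megabladder kidneys, and miR-24-1* 13.3 ± 2.71 and 9.49 ± 2.14, on arrays that differed in brightness as given above. The megabladder signals are only bounds, and the bound gave a ratio under 1 for both, so no fold is given.

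miR-140* and unstarred miR-140, known from cartilage and the product of a hairpin within Wwp2, moved alike. miR-140* was at 6.63, 6.48, 6.64 and 6.55 in wild-type and 6.72, 6.32 and 6.72 in megabladder kidneys, a difference of 0.01 (-0.28 to 0.31). The strand difference changed by 0.0055 (-0.17 to 0.18), the smallest change among the 17 pairs. miR-378* was at 5.35 to 5.42 and 5.22 to 5.50, a difference of 0.03 (-0.20 to 0.26).

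The miR-200 family keeps cells epithelial, and 2 of its 4 starred strands were detected. miR-200b* was at 4.56 to 4.77 in wild-type and 4.35 to 4.97 in megabladder kidneys, a difference of 0.06 (-0.32 to 0.44), and miR-200a* at 3.85 to 4.08 and 3.78 to 4.11, a difference of 0.03 (-0.24 to 0.30). Their strand differences changed by 0.18 and 0.17, neither of them called (limma adjusted p = 0.348 for each). These intervals still leave room for changes of about the size of the miR-193* pair.

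Of the 8 starred strands of the miR-17 cluster and its relatives, miR-17* alone was detected, at 4.14 to 4.46 in wild-type and 4.22 to 4.47 in megabladder kidneys, a difference of 0.03 (-0.26 to 0.31). miR-29c*, whose unstarred partner targets collagens, was at 3.93 to 4.53 and 3.89 to 4.40, a difference of -0.01 (-0.51 to 0.48). Wild-type mice 3 and 4 (4.49 and 4.53) lay above mice 1 and 2 (3.93 and 3.98), and unstarred miR-29c split the same mice, at 10.25 and 10.21 against 9.32 and 9.35. miR-22* was at 4.12 to 4.57 and 3.80 to 4.31, a difference of -0.23 (-0.63 to 0.17, limma adjusted p = 0.515). miR-455* and miR-674* differed by -0.12 (-0.44 to 0.20) and 0.03 (-0.30 to 0.36), and for both the genotypes overlapped. The miR-455* difference moved with the floor and signal: it was -0.35 with a floor of 1 unit and -0.54 with total gene signal, called in neither.

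Dim strands outside let-7 lay on both sides of 0 after scaling. Of the 15 tested strands with a mean level under 4.5, the 12 outside let-7 differed by -0.23 to 0.35, with a median of 0.03. Those below 0 (miR-22*, miR-29c*, miR-455* and miR-193*) had wild-type means of 3.89 to 4.36, above those of let-7 (3.53 to 3.68). Those with wild-type means of 3.51 to 3.56 (miR-191*, miR-24-1*, miR-30b*, miR-30c-1* and miR-485*) were all above 0, by 0.02 to 0.35. A strand at the floor cannot fall further. The 7 strands at or above 4.5 differed by -0.10 to 1.15, and none was called. Among the 11 tested strands with several usable probes, no strand had probes that differed in sign.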

How the data were processed

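Per the labels' protocols, 100 ng of total RNA from each of 7 whole kidneys was labelled (Cy3). Per the file headers, Agilent Feature Extraction 10.7.3.1 turned the scans into spot intensity values, as the submitters' processing notes also say. The deposited intensity columns hold background-subtracted signals with no scaling between arrays. Flags of detection were set by the same software. The authors' deposited table of processed values was used only as an alternative, for the 191 tested microRNAs before a break in its row order (after name 532 of 650 in alphabetical order, values follow the neighbouring name); its scale is not stated.

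Left out were control spots and outlier spots (3.45% to 3.77% of an array's spots); none was saturated. Spots were averaged per probe, scaled, floored and put on a log2 scale, and a microRNA's level is the mean over its probes detected on at least 3 arrays. Between 190 and 210 mouse microRNAs were detected per array, and the number of arrays limits the precision. limma 3.58.1 in R 4.3.3 was fitted over all 213 tested microRNAs and over 25 strand pairs, without a block, with Benjamini-Hochberg adjusted p under 0.05. The fits were tested on simulated data. Named were all tested starred strands, their partners and the detected strands that could not be tested, with values in every array for those called and others of small p. The members and lists were chosen with earlier results of these data known. Alternatives changed scaling, signal, floor, filter, probes, block, prior and arrays.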

Additional observations from a re-analysis of the deposited data

Results flagged for a closer look

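Among 57 groups of 4 wild-type values examined, the levels of starred strands and their partners among them, 4 had 1 mouse apart from the others by Dixon's criterion. Chance alone meets this criterion in about 1 of 20 groups. let-7f* was at 3.60 in wild-type mouse 4 while the other wild-type mice were at 3.51. miR-191* was at 3.61 in the same mouse. For both strands the other wild-type values lay at or near the floor of 3.51, which holds them together. In unscaled units mouse 4 was the lowest wild-type mouse for let-7f* (12.2) and within the range of the others for miR-191* (11.9). miR-378* was at 5.42 in wild-type mouse 2, and miR-674* at 4.40 in wild-type mouse 1.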

How the results depend on the processing

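Starred strands called higher (2 as reported) fell to 0 with the 75th percentile over all probes, quantile normalization, no scaling, normexp, total gene signal, the authors' deposited table, a floor of 1 unit, no filter, or wild-type mice 3 and 4 left out (3 to 12 with an unadjusted limma p under 0.05). They fell to 1 with the median over detected probes and with detection required on all 7 arrays, and were 0 to 3 with 1 array left out. With no scaling 10 were called lower in place of 0. Among these 10, miR-140* (-0.60), miR-200a* (-0.58), miR-200b* (-0.55), miR-378* (-0.59) and miR-674* (-0.58) turned from above to below 0. Of all 22 tested strands, 16 were above 0 as reported and 4 with no scaling. Starred pairs called higher (4 as reported) fell to 1 with quantile normalization, the authors' table, no filter and detection on all 7 arrays, and to 0 with normexp; the authors' table called 2 lower. The miR-193* pair was -0.034 with quantile normalization, and in the authors' table the let-7d* pair was -0.028 and the miR-29c* pair -0.38. The let-7b*, let-7d* and let-7f* pairs passed under 20 of 22, 17 of 21 and 18 of 21 alternatives. Several alternatives could move a pair little or not at all, so these counts are no measure of stability. A common array factor cancels in a pair apart from the floor, and another prior or dropping repeat-rich families leaves its estimate unchanged. The calls were lost with quantile normalization, normexp, the authors' table or no filter. The causes were not tested. A replicate block gave 3 starred strands higher (let-7b*, let-7d* and miR-877*; 27 of 213 over all microRNAs, 6 without it) and 3 pairs, with miR-193* lost (adjusted p = 0.065). Mice share only a number, with correlations of -0.21, 0.01 and 0.21 between same-numbered mice, and 1 of the 3 correlated best with its own number. Of 842 recomputed differences 641 kept their direction and side of the threshold, 45 lost a call and 12 gained one. Another 136 changed sign with no call in either fit, and 8 changed sign with a call in at least 1 fit. Dim signal, near 8 to 18 unscaled units for let-7 strands, limits all of these.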
